A study of Mus musculus with 18 samples.

Results

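RNA was sequenced from RAW 264.7 cells, a transformed mouse macrophage line, that had received TBHQ (tert-butylhydroquinone, a synthetic phenolic antioxidant) and then PIC (poly(I:C), a synthetic double-stranded RNA), and the 3 PIC + TBHQ libraries were set against 3 libraries of untreated control cells. Every gene of the count table belonged to the comparison: 56748 genes were listed, 27701 had a count in any of the 18 libraries, and 13691 had enough counts to be tested. The question was which part of the activation by PIC remained in cells that had met TBHQ first, and in what state the genes stood that had moved to the other side of the control. In the PIC + TBHQ group, 5 µM TBHQ was given for 4 h and 20 µg/mL PIC for 12 h. Values of 3 further groups of 3 libraries are given beside it: PIC alone (20 µg/mL, 12 h), TBHQ alone (5 µM, 4 h), and LPS + TBHQ, in which bacterial lipopolysaccharide at 0.1 µg/mL for 12 h took the place of PIC. All groups carry the label WT.

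Some limits belong to the design. The control cells had medium only, under a design of 12 h, whereas the PIC + TBHQ cells had 4 h of TBHQ ahead of their 12 h of PIC. The paper states that the control cells had no further treatment and names no vehicle for them, although TBHQ was dissolved in DMSO. PIC, TBHQ and any vehicle therefore differ together between PIC + TBHQ and control and cannot be told apart. TBHQ alone was harvested at 4 h, so its values stand beside the others at a different time. Whether TBHQ was removed before PIC is not stated. The 3 replicates of a group are described as biological replicates of this 1 cell line, and the p-values measure only the spread between these samples. All comparisons with the control share the same 3 control libraries. In RNA from whole cultures, fewer cells of a kind and less RNA per cell cannot be told apart.

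The control libraries held 14599770, 15410984 and 15932183 counts on genes, the PIC + TBHQ libraries 16212079, 14934775 and 16906576, and the PIC libraries 15178175, 15502461 and 18851626. In each control library 6.27% to 6.36% of all counts fell on its 10 largest genes, and in each PIC + TBHQ library 6.84% to 6.91%, and genes of the mitochondrial genome took 2.03% to 2.18% and 1.71% to 1.74%. Levels are given as FPKM (fragments per kilobase of gene, scaled to the size of the library), which allow genes of different length to be compared. The deposited FPKM carry a further constant per library (0.943 to 0.951 in control, 1.05 to 1.06 with PIC + TBHQ, 1.11 to 1.12 with PIC), close to the inverse of the TMM factor of edgeR, so levels and statements on overlap share that scaling. Differences are given as the log2 fold change (log2FC, where 1 is a doubling and -1 a halving) from edgeR, with its FDR, the p-value adjusted over all 13691 genes. A standard error beside a log2FC was taken from how far the log2 CPM (counts scaled to library size) of a group's replicates lay apart. Statements on overlap refer to the 3 libraries of a group against the 3 of another. Positions are those of the authors' files. Where over 10% of a gene's 50-base words also occur in another gene, reads may be counted on the wrong gene and the value is uncertain, which is marked as shared sequence with the percentage.

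The macrophage label was checked by marker genes. All 8 macrophage markers were measured, with a summed level of 5748 to 6133 FPKM in the control libraries and 5184 to 5531 with PIC + TBHQ, and *Lyz2* (lysozyme, shared sequence, 15.4%) was the most abundant. At an FDR below 0.05, 3 of the 8 were higher and 4 lower than in control, where 26.4% of all genes tested were higher and 26.0% lower, shares against which the marker counts here are to be read. Epithelial markers were at 0 counts in all 6 libraries for 5 of 5 genes. At most 3 counts per library were found for 6 of 7 fibroblast, 6 of 7 T cell and 5 of 6 B cell markers, and the remaining T cell marker, *Lck*, was higher with PIC + TBHQ. Of 5 endothelial markers 2 had enough counts to be tested and neither was called. Of 7 neutrophil markers 2 were higher, with *S100a8* the most abundant at 0.597 to 0.939 FPKM in control and 2.72 to 4.58 with PIC + TBHQ, while *S100a9* and *Ly6g* were at 0. Of 6 dendritic cell markers 2 were tested and 0 called (by edgeR). Of 8 osteoclast markers, genes that this line can express, 1 was higher and 3 lower, with *Ctsk* the most abundant at 200.5 to 215 FPKM in control and 161 to 165 with PIC + TBHQ. The genes *Lck*, *S100a8*, *S100a9*, *Ly6g* and *Ctsk* are named after their values were seen.

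Double-stranded RNA is a sign of viral infection. Macrophages sense it through the endosomal receptor TLR3 and cytosolic helicases such as MDA5, which switch on interferon genes through IRF factors and inflammatory genes through NF-κB, and secreted interferon then induces antiviral genes through JAK and STAT proteins. TBHQ is oxidised to a quinone that reacts with cysteines of Keap1, releasing the transcription factor Nrf2, which induces genes for glutathione synthesis, quinone reduction and iron storage.

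A strong activation remained after TBHQ. Among genes with a mean of at least 50 counts, and with genes of at most 3 counts in every control library set to their lower bound, the 6 highest log2FC against control were those of *Csf3*, *Il1b*, *Serpinb2*, *Ccl5*, *Il1a* and *Il36g*, and all 30 genes of the list for mitosis and G2/M were below it. Past the threshold used throughout, a log2FC beyond 2 either way with an FDR under 0.01, lay 241 genes above the control (1.76% of the genes tested) and 54 genes below it (0.394%). Without a limit on the fold change, 3615 genes (26.4%) were higher and 3563 (26.0%) lower at an FDR below 0.05. The median log2FC of these was 0.44 in the higher and -0.41 in the lower genes, so most changes were under a doubling or halving: 2890 higher and 3020 lower genes lay within 1 of 0 on the log2 scale. Large rises outnumbered large falls, with 44 genes between 4 and 6 and 11 above 6 on the log2 scale, against 1 below -4. With genes at their lower bound as above, 25 and 3 of the 241 lay in these ranges. Below, counts of list members against control are to be read beside the 26.4% and 26.0%. For counts against PIC, the shares of all genes tested were 15.8% higher and 15.5% lower. For counts against LPS + TBHQ they were 11.9% higher and 8.39% lower. A count near its share says nothing particular of a list. Of genes named after their values were seen, except *Ddit4*, just inside the limit lay *Nod1* at 2.000 and *Prc1* at -2.004, and just outside it *Ddit4* at 1.994 and *Hal* at -1.997.

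These directions rest on a scaling of the libraries, TMM, that balances the bulk of the genes. With scaling by total counts, the median of all genes moved by -0.15 between PIC + TBHQ and control and by -0.22 between PIC and control, and 2364 genes were higher and 5515 lower at an FDR below 0.05, in place of 3615 and 3563. All directions below are relative to that shift, and it is named again where a group of genes turns.

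The 241 higher genes held 0.961% to 1.09% of the summed FPKM of a control library, 6.51% to 6.60% with PIC + TBHQ and 8.75% to 9.01% with PIC. Their median log2FC against control was 2.75 with PIC + TBHQ, 3.32 with PIC, 2.06 with LPS + TBHQ and 0.28 with TBHQ alone. With 64 genes that had at most 3 counts in every control library set to their lower bound, the first of these medians was 2.47. Against PIC, 120 of the 241 were lower (15.5% of all genes tested were) and 25 higher (15.8%) at an FDR below 0.05, and 96 were neither. Against LPS + TBHQ, 148 were higher (11.9% of all genes) and 0 lower (8.39% of all genes), but these genes were chosen for high values in the same PIC + TBHQ libraries, which tilts both comparisons towards higher, so the shares of all genes are no measure for them. All 3 PIC + TBHQ libraries lay above all 3 control libraries in 238 of the 241, whose choice by this contrast fixes that direction. By class, 190 were protein coding, 32 long non-coding RNAs and 12 processed pseudogenes. Many were weakly expressed: 87 had a mean under 20 counts over the 6 libraries, and 110 a mean of at least 50.

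The 54 lower genes held 0.122% of the summed FPKM in control and 0.0223% to 0.0244% with PIC + TBHQ. Their median log2FC was -2.29 (-2.22 with 6 genes of at most 3 counts at their bound), beside -2.41 with PIC, -1.64 with LPS + TBHQ and -0.07 with TBHQ alone. Against PIC, 16 of the 54 were higher and 1 lower, and against LPS + TBHQ 29 were lower and 0 higher at an FDR below 0.05 (edgeR). Of all genes, 15.8% were higher and 15.5% lower than with PIC, and 8.39% lower and 11.9% higher than with LPS + TBHQ. The choice of the 54 by low values in the same PIC + TBHQ libraries tilts both comparisons towards lower.

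**Figure D1:**
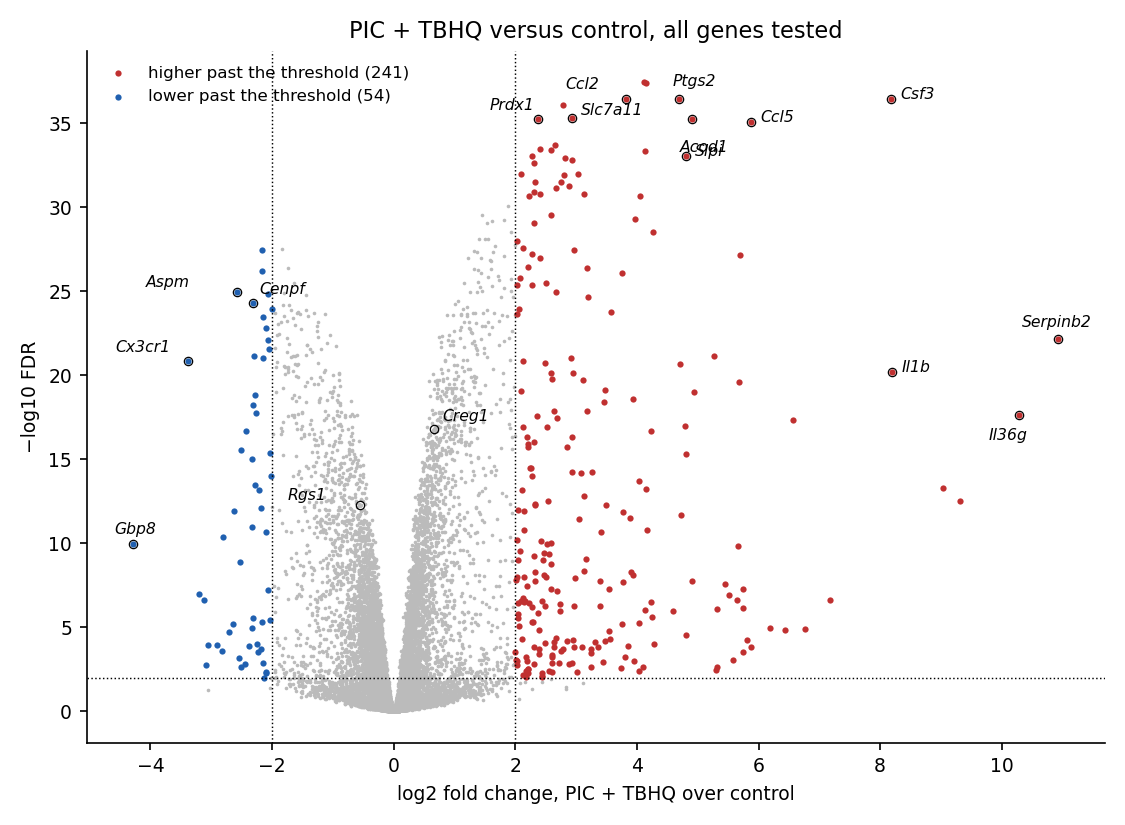
Log2 fold change of PIC + TBHQ over control (x axis) against -log10 of the FDR (y axis) for the 13691 genes tested, 1 point per gene. Red points are the 241 genes past the threshold above the control and blue points the 54 below it, dotted lines mark the limits, and circled points are genes described in the text.

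*Csf3* (ENSMUSG00000038067, chromosome 11, 98592089 to 98594455), which encodes G-CSF, the growth factor of neutrophils, was the most abundant inflammatory cytokine mRNA with PIC + TBHQ. It measured 5.58, 2.35 and 2.26 FPKM in the 3 control libraries, 1011, 926 and 991 with PIC + TBHQ and 1642, 1590.5 and 1591 with PIC. Its log2FC was 8.18 (standard error 0.42, FDR = 3.7e-37) against control and -0.71 (standard error 0.043, FDR = 6.4e-12) against PIC. All PIC and PIC + TBHQ libraries stood far above the control, of which the first library was the highest, and those with TBHQ lay below all PIC libraries. TBHQ alone gave 15.4, 15.5 and 15.9 FPKM, a log2FC of 2.22 (FDR = 4.0e-15).

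*Il1b* (ENSMUSG00000027398, chromosome 2, 129206490 to 129213059) and *Il1a* (ENSMUSG00000027399, chromosome 2, 129141530 to 129151892) encode the pyrogenic cytokines interleukin-1 beta and alpha. *Il1b* had 1, 2 and 1 counts in the control libraries, 410, 372 and 430 with PIC + TBHQ and 3478, 3767 and 3533 with PIC. *Il1a* had 1, 1 and 3, 156, 152 and 172 and 1251, 1261 and 1446 counts in the same order. Both were near absent in control, present in every PIC + TBHQ library, and far higher in every PIC library. With so few control counts the fitted fold change depends on the constant added to low counts, so ratios of summed counts are given: 321 (95% counting interval 125 to 1181) for *Il1b* and 102 (95% counting interval 43.3 to 315) for *Il1a*. These intervals, and every floor named here, cover counting error only. Against PIC, where counts are ample, *Il1b* had a log2FC of -3.19 (FDR = 4.4e-23) and *Il1a* of -3.07 (FDR = 3.6e-21), the widest gaps to PIC among the 12 named genes highest above the control.

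In 9 genes the counts went from at most 3 in each control library to at least 30 in each PIC + TBHQ library. For 4 of the 9 no control library had a count, and their rise is a lower bound against a floor of 3 counts per library. *Serpinb2* (ENSMUSG00000062345, chromosome 1, 107439153 to 107463208, shared sequence, 10.4%), the plasminogen activator inhibitor PAI-2, had 239, 224 and 245 counts with PIC + TBHQ, at least 83.3-fold higher, and 1034, 1009 and 1209 with PIC. *Il36g*, an epithelial and myeloid cytokine of the interleukin-1 family, had 132, 147 and 172 counts, at least 53.02-fold higher, and only 30, 41 and 49 with PIC, so that here the group with TBHQ stood above PIC in every library (log2FC 1.88, FDR = 1.4e-09). *Cxcl3*, a neutrophil chemokine, had 69, 55 and 65 counts, at least 22.2-fold higher, and overlapped with PIC at 55, 58 and 75. *Cstdc4*, a stefin-type protease inhibitor gene (shared sequence, 10.98%), had 73, 87 and 69 counts, at least 27.1-fold higher. The other 5 of the 9 were *Il1b*, *Il1a*, *Ntng2*, *Gm46189* and the collagenase gene *Mmp13*, with ratios of 28.1 (95% counting interval 12.6 to 77.7) for *Ntng2*, 18.8 (95% counting interval 9.29 to 44.4) for *Gm46189* and 59.9 (95% counting interval 16.2 to 501) for *Mmp13*. *Cstdc4*, *Ntng2*, *Gm46189* and *Mmp13* are named after their values were seen. The reverse, from at least 30 counts in each control library to at most 3 in each PIC + TBHQ library, was met by 0 genes.

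Chemokines are secreted proteins that draw leukocytes. Of 9 tested CC chemokine genes all 9 were higher than in control at an FDR below 0.05, and all 9 were below PIC. The median log2FC was 2.55 beside 4.79 with PIC, where 28.6% of all genes were higher. With low-count genes at their bound the former was 2.27, and no bound was applied to the PIC median. *Ccl5* (ENSMUSG00000035042, chromosome 11, 83416604 to 83421344), which attracts T cells and monocytes, measured 6.99, 4.73 and 5.67 FPKM in control, 358, 344 and 327 with PIC + TBHQ, 855, 955 and 821 with PIC and 49.3, 57.7 and 55.6 with LPS + TBHQ. Its log2FC was 5.88 (standard error 0.16, FDR = 9.0e-36) against control, -1.34 (FDR = 3.5e-21) against PIC and 2.67 (FDR = 2.5e-28) against LPS + TBHQ. The 4 groups did not overlap, with PIC highest and control lowest. *Ccl3* and *Ccl4*, attractants of monocytes and lymphocytes, were the most abundant of the list: *Ccl3* rose from 475–496 to 3833–4021 FPKM and *Ccl4* from 267–353 to 1431–1486. *Ccl2* and *Ccl7*, monocyte attractants, had log2FC of 3.82 and 4.27 against control. *Ccl12* had 3, 0 and 1 counts in control and 11, 5 and 8 with PIC + TBHQ, a ratio of 6.36 (95% counting interval 2.19 to 25.2).

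Of 6 tested CXC chemokine genes 4 were higher and 0 lower than in control (by edgeR), with a median log2FC of 2.27 beside 4.10 with PIC. With low-count genes at their bound the former was 2.12, and no bound was applied to the PIC median. Against PIC 4 of the 6 were lower and 1 higher. *Cxcl2*, a neutrophil attractant, was the most abundant, and its log2FC was 4.05 (FDR = 2.2e-31) against control. *Cxcl10* (ENSMUSG00000034855, chromosome 5, 92494497 to 92496748), an interferon-induced attractant of T cells, measured 3.99, 3.30 and 3.10 FPKM in control, 12.9, 13.5 and 11.96 with PIC + TBHQ, 34.6, 37.6 and 37.6 with PIC and 2.04, 2.22 and 2.08 with LPS + TBHQ. It rose by 1.88 on the log2 scale (FDR = 4.1e-19) against control, whereas LPS + TBHQ lay below control in every library. Chemokine receptors were divided, 3 higher and 3 lower of 7 tested. *Ccrl2*, a non-signalling receptor that binds chemerin, rose from 2.03–2.65 to 20.01–21.6 FPKM, and *Ccr1*, a receptor for CCL3 and CCL5, fell from 9.89–10.8 to 7.83–8.10 while PIC had raised it (log2FC 0.24, FDR = 0.00689), a call lost with scaling by total counts (0.02, FDR = 0.794) and without PIC replicate 2 (0.19, FDR = 0.0582). With only genes of a mean of at least 50 counts tested, 2 CXC chemokine genes and 1 receptor were higher.

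Among inflammatory cytokines, 19 of 20 tested genes were higher and 0 lower (by edgeR), 11 of them past the threshold. The median log2FC of the list was 2.43 beside 4.04 with PIC. With low-count genes at their bound the former was 1.36, and no bound was applied to the PIC median. Against PIC 17 of the 20 were lower and 2 higher. *Lif*, a cytokine of the interleukin-6 family, measured 0.314, 0.198 and 0.286 FPKM in control, 14.98, 13.4 and 13.2 with PIC + TBHQ and 52.7, 48.9 and 46.01 with PIC, a log2FC of 5.69 (FDR = 7.3e-28) against control and -1.82 (FDR = 3.9e-21) against PIC. Each group stood clear of the others. *Il6*, a cytokine of fever and the acute phase, had a log2FC of 3.45 (FDR = 3.8e-19) against control. *Edn1*, which encodes the vasoconstrictor peptide endothelin-1, rose from 4, 2 and 4 counts to 163, 170 and 170 and its log2FC against PIC was -2.43. Interferon ligands themselves were not among the tested genes, since *Ifnb1*, *Ifna1*, *Ifna2*, *Ifna4*, *Ifna5*, *Ifnl2*, *Ifnl3* and *Ifng* had too few counts, and 4 receptor genes remained of that list.

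Effector enzymes and secreted proteins of activated macrophages were raised almost throughout, with 23 of 25 higher and 0 lower (1 lower with scaling by total counts) and 20 past the threshold, at a median log2FC of 2.65 beside 3.03 with PIC. *Acod1*, which makes the antibacterial metabolite itaconate, was the most abundant, and its log2FC was 4.91 (FDR = 5.4e-36) against control and -0.31 (FDR = 2.7e-05) against PIC. *Ptgs2*, the inducible cyclooxygenase of prostaglandin synthesis, had 4.69 (FDR = 3.7e-37) against control and *Nos2*, the inducible nitric oxide synthase, 2.31 (FDR = 9.3e-30). Against PIC, 19 of the 25 were lower and 2 higher. *Slpi* (ENSMUSG00000017002, chromosome 2, 164195990 to 164231015), a secreted inhibitor of leukocyte proteases, was higher than with PIC, unlike most of the list. It measured 4.64, 5.15 and 3.66 FPKM in control, 64.7, 67.7 and 65.1 with PIC, 128, 129 and 122 with PIC + TBHQ and 47.7, 49.4 and 50.1 with LPS + TBHQ. Its log2FC was 4.81 (standard error 0.14, FDR = 9.7e-34) against control and 0.95 (standard error 0.031, FDR = 1.4e-16) against PIC. Every PIC + TBHQ library lay above every library of the other groups named. *Mmp14*, a membrane-bound matrix protease, rose from 0.0515–0.0656 to 2.00–2.72 FPKM and *Upp1*, which cleaves uridine, from 0.133–0.313 to 6.80–9.10.

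**Figure D2:**
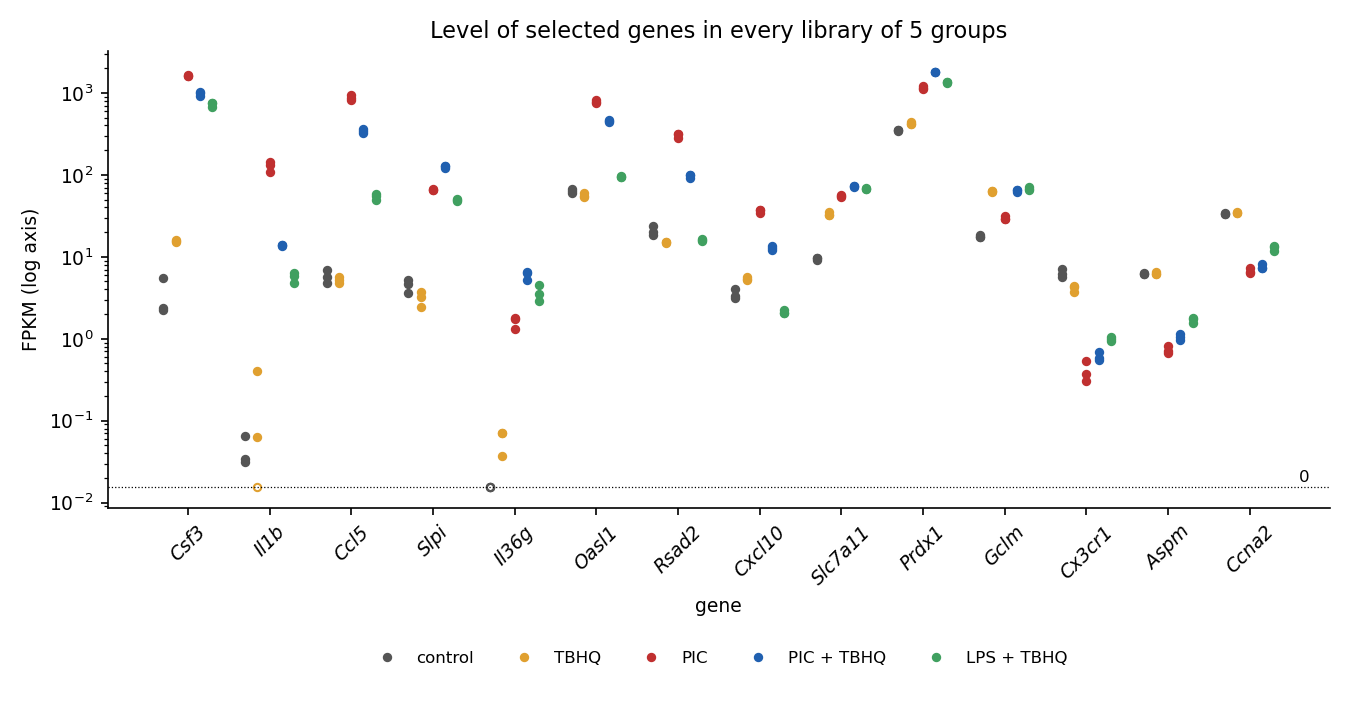
FPKM on a log axis (y axis) of 14 genes (x axis) in each library of 5 groups, 1 point per library. Open points on the dotted line are libraries with a value of 0. The PIC + TBHQ libraries of *Slpi* and *Prdx1* lie above all others, and those of *Ccl5*, *Oasl1* and *Rsad2* lie between PIC and control.

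NF-κB subunits and inhibitors had 17 of 23 genes higher and 2 lower, with a median log2FC of 0.80 beside 0.94 with PIC, and 15 of 23 below PIC. *Traf1*, an adaptor of TNF receptors, rose from 3.67–4.00 to 24.9–26.1 FPKM (log2FC 2.75, FDR = 3.4e-32), *Tnfaip3*, a ubiquitin editor known as A20, from 4.99–5.17 to 27.03–27.2, and *Nfkbia*, which encodes IκBα, from 49.6–54.8 to 156–163. The kinase gene *Ikbke* and the co-regulator gene *Nfkbiz* had log2FC of 1.94 and 1.61, and the subunit gene *Nfkb1* 0.78. *Chuk* (-0.19), an IκB kinase gene, and *Cyld* (-0.21), a deubiquitinase gene, were slightly lower than control.

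Factors of the AP-1, Egr and stress-induced group had 11 of 20 higher and 4 lower, with a median log2FC of 0.51 beside 0.71 with PIC. *Ier3*, an immediate early gene, rose from 64.7–77.8 to 424–452 FPKM, and *Fosl1*, an AP-1 subunit, from 2.20–3.08 to 10.8–11.4, with 7.27 to 7.70 after TBHQ alone. *Myc*, a growth factor-induced regulator, had a log2FC of 1.24 (FDR = 1.2e-16). *Egr3* (-1.66) and *Fos* (-1.03) were lower than control. *Klf4* was lower at -0.54 (FDR = 0.0140), a call lost without control replicate 2 (FDR = 0.0769), without PIC + TBHQ replicate 1 (FDR = 0.0837) and in DESeq2 on the conditions compared (FDR = 0.0841), and in each of these settings 2 genes of the list were lower in place of 4.

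Sensors of double-stranded RNA and their adaptors had 10 of 15 tested genes higher and 2 lower, with a median log2FC of 0.52 beside 0.80 with PIC, and 11 of the 15 lay below PIC. *Zbp1*, a sensor of Z-form nucleic acid, measured 5.48, 4.45 and 4.85 FPKM in control, 20.1, 19.7 and 18.97 with PIC + TBHQ and 38.5, 40.97 and 37.7 with PIC (log2FC 1.99 (FDR = 2.5e-24) against control, -0.98 (FDR = 3.3e-17) against PIC). *Ifih1*, which encodes MDA5, and *Ticam1*, the TLR3 adaptor TRIF, had log2FC of 0.99 and 0.86. The TLR3 gene itself stood on the other side of the control: *Tlr3* measured 3.05, 3.32 and 2.78 FPKM in control, 3.94, 4.46 and 3.90 with PIC and 2.59, 2.54 and 2.60 with PIC + TBHQ. The fall of *Tlr3* was small (log2FC -0.25, FDR = 0.0383) and did not pass an FDR of 0.05 in several settings, among them without control replicate 2 (-0.18, FDR = 0.188) or in DESeq2 (FDR = 0.0909), and its rise with PIC did not with total counts (0.19, FDR = 0.0835). *Eif2ak2*, the kinase PKR, fell by 0.11 on the log2 scale (FDR = 0.0207), a call lost in some settings, among them without PIC + TBHQ replicate 3 (-0.09, FDR = 0.106). The 2 lower genes of this list became 1 or 0 in 10 settings.

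JAK-STAT genes had 10 of 15 higher and 1 lower (3 lower with scaling by total counts), with a median log2FC of 0.36 beside 0.56 with PIC. *Socs3*, a feedback inhibitor of cytokine receptors, rose from 2.42–2.52 to 41.5–45.4 FPKM (log2FC 4.13, FDR = 4.3e-34), below PIC at 66.99 to 72.1. *Jak2* and *Jak1*, receptor-bound kinases, had log2FC of 0.77 and 0.48. Interferon receptors moved little (median -0.02), with 1 of 4 tested genes higher, *Ifnar1* at 0.21, which did not pass with scaling by total counts (0.06, FDR = 0.345), and 1 lower, *Ifngr1* at -0.55. Without PIC + TBHQ replicate 2 the list had 2 higher and without PIC + TBHQ replicate 3 it had 2 lower. Interferon regulatory factors had 2 of 8 higher and 1 lower (2 lower with total counts), with a median of 0.06, counts close to or under the 26.4% and 26.0% of all genes. *Irf7*, the factor that amplifies interferon production, measured 61.1, 62.5 and 57.1 FPKM in control, 124, 116 and 116 with PIC + TBHQ and 198, 202 and 205 with PIC, and *Irf9*, a DNA-binding partner of STAT proteins, had a log2FC of 0.28. *Irf2*, a repressor of interferon targets, was lower at -0.54.

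Interferon-stimulated antiviral effectors formed the largest list. Of 57 tested genes 41 were higher and 6 lower than in control (32 and 11 with scaling by total counts). The median log2FC was 0.33, beside 1.02 with PIC and -0.50 with TBHQ alone at 4 h. Below PIC were 55 of the 57 and above it 0, and 53 lay above LPS + TBHQ and 1 below. Their summed level was 3528 to 3637 FPKM in control, 5209 to 5328 with PIC + TBHQ and 7709 to 8233 with PIC. A small core stayed far above control. *Oasl1* (ENSMUSG00000041827, chromosome 5, 115061299 to 115075974), which limits translation of *Irf7* mRNA, measured 67.5, 59.9 and 63.6 FPKM in control, 462, 451 and 438 with PIC + TBHQ, 769.7, 814 and 755 with PIC and 94.8, 93.98 and 98.01 with LPS + TBHQ. Its log2FC was 2.82 (standard error 0.055, FDR = 1.2e-33) against control and 2.24 (FDR = 1.5e-29) against LPS + TBHQ. *Rsad2*, which encodes viperin, measured 23.6, 18.7 and 20.3 in control, 101, 98.6 and 92.2 with PIC + TBHQ and 315, 318 and 281 with PIC, a log2FC of 2.21 (FDR = 3.7e-27) against control. *Isg15*, a ubiquitin-like modifier, rose from 96.4–109 to 320.1–333 FPKM. In all 3 genes PIC + TBHQ stood between PIC and control without overlap.

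Other antiviral genes ended below the control. *Ifi27l2a*, a small mitochondrial protein gene, measured 177, 195 and 177 FPKM in control, 143, 152 and 146 with PIC and 100.4, 101 and 94.2 with PIC + TBHQ, a log2FC of -0.90 (FDR = 9.4e-17) against control. *Slfn9*, of the Schlafen family (shared sequence, 11.5%), fell by 0.79 on the log2 scale. *Ifitm3*, which blocks viral entry (shared sequence, 10.02%), was the most abundant antiviral gene and above the control, at 1242 to 1271 FPKM in control and 1560.3 to 1602 with PIC + TBHQ. Interferon-inducible GTPases, which attack pathogen vacuoles, had 7 of 16 higher and 1 lower (0 lower among genes with a mean of at least 50 counts). Their median was 0.23, beside 1.19 with PIC and -0.67 with TBHQ alone at 4 h, and 15 of the 16 lay below PIC. *Gbp2*, *Gbp2b* and *Gbp3* had log2FC of 2.30, 2.27 and 1.91 against control and -1.51, -1.44 and -1.19 against PIC. *Gbp8* (shared sequence, 18.1%) went from 59, 73 and 82 counts to 4, 1 and 5, and it was already low after TBHQ alone (log2FC -3.07, FDR = 2.4e-08), the lowest fitted log2FC of all named genes at -4.29.

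Nrf2 target genes stood above the control in 34 of 38 tested cases and below in 0 (by edgeR; 2 below with scaling by total counts and 1 without control replicate 1), with a median log2FC of 1.01. The same list had a median of 0.43 with PIC and 0.54 with TBHQ alone, and 32 of its 38 genes were higher with PIC + TBHQ than with PIC and 3 lower. Against LPS + TBHQ, 8 of the 38 were higher (11.9% of all genes) and 2 lower (8.39%), with a median log2FC of -0.002. The raised level of this list was thus shared with LPS + TBHQ. The summed level was 6023 to 6209 FPKM in control, 10914 to 11231 with PIC and 13211 to 13538 with PIC + TBHQ. *Slc7a11* (ENSMUSG00000027737, chromosome 3, 49846975 to 50398063), the cystine importer for glutathione synthesis, measured 9.56, 9.24 and 9.70 FPKM in control, 35.4, 32.2 and 32.1 after TBHQ, 56.9, 53.3 and 54.6 with PIC and 71.8, 72.9 and 73.2 with PIC + TBHQ, a log2FC of 2.93 (standard error 0.022, FDR = 5.2e-36) against control. *Prdx1* (ENSMUSG00000028691, chromosome 4, 116542741 to 116558019), a peroxidase of hydrogen peroxide, measured 354, 349 and 344, 435, 418 and 415, 1155, 1203 and 1099.9 and 1817, 1801 and 1822 in the same order, a log2FC of 2.37 (standard error 0.014, FDR = 5.4e-36). Among the groups whose values are given here, both were highest with PIC + TBHQ in every library. *Prdx1* was only slightly above the control after TBHQ alone (log2FC 0.27, FDR = 8.9e-09).

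*Srxn1*, which reactivates oxidised peroxiredoxins, measured 49.7, 48.1 and 52.3 FPKM in control, 145, 147 and 154 after TBHQ, 142, 144 and 144 with PIC and 216, 207 and 221 with PIC + TBHQ. *Gclm*, a subunit of the enzyme that starts glutathione synthesis, measured 17.6, 17.6 and 18.6, 61.7, 64.4 and 64.2, 29.2, 29.1 and 31.03 and 64.4, 61.3 and 64.8. *Gclm* with PIC + TBHQ thus overlapped with TBHQ alone and lay far above PIC (log2FC 1.10, FDR = 1.7e-22). *Hmox1*, the heme oxygenase, was an exception in lying below PIC by a small margin, at 1019 to 1038 FPKM against 1126 to 1213 with PIC and 187 to 202 in control. The ferritin genes *Ftl1* (shared sequence, 50.9%) and *Fth1*, which store iron, rose by 0.84 and 0.75 on the log2 scale. *Adh7*, an alcohol dehydrogenase, was lower after TBHQ alone (log2FC -0.67, FDR = 1.3e-04) and higher with PIC + TBHQ (log2FC 0.99, FDR = 2.1e-09). *Gstp1* (shared sequence, 33.7%) had a log2FC of 1.08 (FDR = 2.1e-05), and *Gstp3* had 0, 0 and 2 counts in control and 28, 18 and 21 with PIC + TBHQ, a ratio of 35.5 (95% counting interval 9.45 to 299). *Nfe2l2*, the gene of Nrf2 itself, measured 39.4, 38.98 and 37.7 FPKM in control and 35.8, 36.5 and 36.6 with PIC + TBHQ, and its call (log2FC -0.10, FDR = 0.0482) was lost in many settings, among them DESeq2 (FDR = 0.0805) and a fit without control replicate 1 (FDR = 0.137). Of Nrf2 and its partners 5 of 7 were higher and 2 lower (1 or 0 in 14 settings), with *Maff* at 2.60, *Mafg* at 0.75 and *Keap1* at -0.16, the last a call lost without PIC + TBHQ replicate 1 (-0.14, FDR = 0.0509) and without control replicate 1 (-0.13, FDR = 0.0587).

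**Figure D3:**
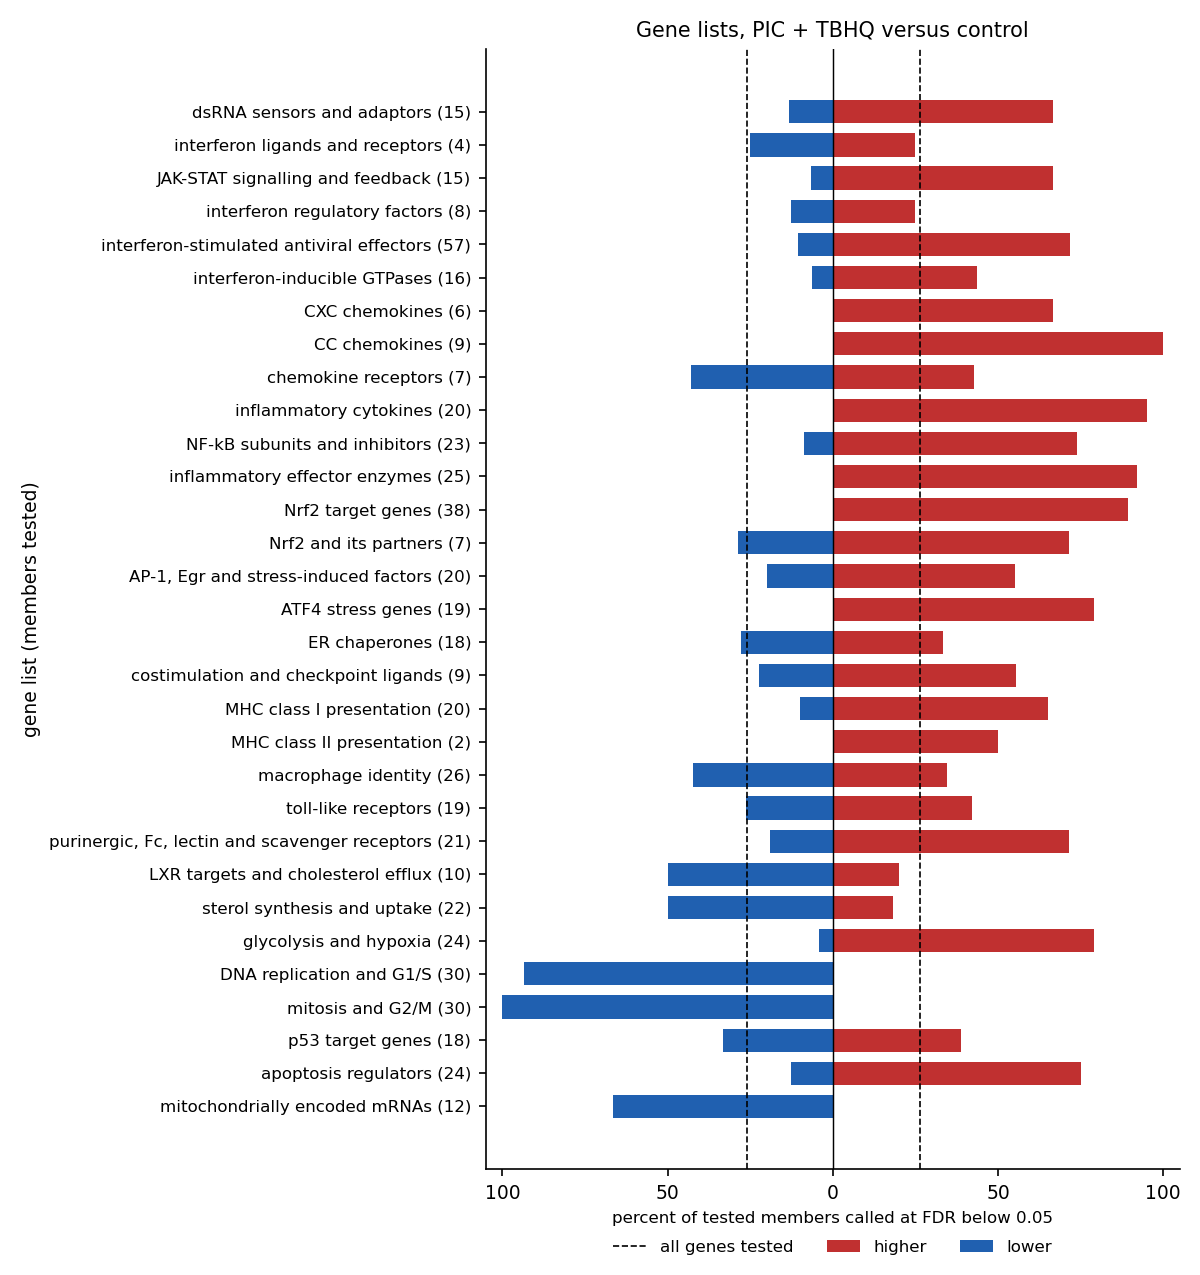
Percent of the tested members of each gene list (y axis, with the number tested) called higher (to the right, red) or lower (to the left, blue) in PIC + TBHQ against control at an FDR below 0.05 (x axis). Dashed lines give the share of all genes tested, 26.4% higher and 26.0% lower. With scaling by total counts, ER chaperones turned from 6 higher and 5 lower to 2 and 12, toll-like receptors from 8 and 5 to 5 and 7, p53 target genes from 7 and 6 to 6 and 9, and interferon ligands and receptors from 1 and 1 to 0 and 2.

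Cell division genes were lower without exception in 1 list. All 30 genes of mitosis and G2/M were lower than in control, 8 past the threshold, with a median log2FC of -1.78 beside -2.14 with PIC, where 30.1% of all genes were lower, and 25 of the 30 lay above PIC. Their summed level was 795 to 804 FPKM in control, 236 to 249 with PIC + TBHQ and 186 to 199 with PIC. *Ccna2*, which encodes cyclin A2, measured 34.4, 33.5 and 33.1 FPKM in control, 8.20, 7.22 and 7.30 with PIC + TBHQ and 11.7, 13.1 and 13.7 with LPS + TBHQ (log2FC -2.16 (FDR = 6.1e-27) against control). *Cenpf*, a kinetochore protein gene, measured 6.61, 6.98 and 6.32 in control, 1.32, 1.26 and 1.43 with PIC + TBHQ and 0.816, 0.713 and 0.826 with PIC. *Cenpa*, the centromeric histone, had a log2FC of -2.15, and *Cdc20* (shared sequence, 10.4%), the activator of anaphase, -1.82 against control and 0.86 against PIC. No PIC + TBHQ library reached the control in these 4 genes.

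DNA replication and G1/S genes had 28 of 30 lower and 0 higher (by edgeR), with a median of -0.76 beside -0.86 with PIC. *Rfc4*, a clamp loader subunit, fell from 25.8–27.9 to 10.5–10.8 FPKM, *Gins1*, of the replicative helicase, from 17.5–18.9 to 6.40–8.22, and *Pole*, a replicative polymerase, from 5.73–6.14 to 2.35–2.77. *Pcna*, the sliding clamp (shared sequence, 19.1%), had a log2FC of -0.53. Against LPS + TBHQ 28 of these 30 and 29 of the 30 mitotic genes were lower, beside 8.39% of all genes tested. The share of dividing cells was not measured in these libraries.

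Of 18 p53 target genes 7 were higher and 6 lower (6 and 9 with scaling by total counts), with a median of 0.02 beside 0.56 with PIC, and 13 lay below PIC. *Mdm2*, the ubiquitin ligase that degrades p53, measured 34.1, 33.3 and 33.7 FPKM in control, 74.8, 73.1 and 75.1 with PIC + TBHQ and 145, 137 and 132 with PIC. *Fas*, a death receptor, and *Plk2*, a stress-induced kinase, had log2FC of 2.35 and 2.33, and *Pmaip1*, which encodes the pro-apoptotic protein NOXA, fell by 0.58. Apoptosis regulators had 18 of 24 higher and 3 lower (12 and 6 with total counts), with a median of 0.40. *Nlrp3*, the inflammasome sensor, rose from 20.5–23.4 to 99.4–103 FPKM (log2FC 2.23, FDR = 2.1e-31), *Cflar*, an inhibitor of caspase-8, had 1.11, and the survival genes *Bcl2a1a* (shared sequence, 68.96%) and *Bcl2a1d* (79.5%) had 2.43 and 1.13.

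Among genes with a mean of at least 50 counts the lowest was *Cx3cr1* (ENSMUSG00000052336, chromosome 9, 119730682 to 119898945), the receptor for fractalkine on monocytes and resident macrophages. It measured 6.23, 5.63 and 7.01 FPKM in control, 0.694, 0.578 and 0.553 with PIC + TBHQ, 0.537, 0.367 and 0.301 with PIC and 4.43, 4.24 and 3.72 after TBHQ alone. Its log2FC was -3.37 (standard error 0.13, FDR = 1.3e-21) against control and 0.63 (FDR = 0.0215) against PIC. All PIC and PIC + TBHQ libraries lay far below the control, and those with TBHQ slightly above PIC. Of the 12 lowest such genes without overlap between the groups, which were chosen for naming, the 11 others ran from -2.29 for *Avil*, an actin-severing protein gene, to -2.62 for *Depdc1b*. *Aspm*, a spindle protein gene, measured 6.34, 6.14 and 6.22 FPKM in control, 1.06, 1.13 and 0.979 with PIC + TBHQ and 0.702, 0.677 and 0.810 with PIC. *Alox5*, the 5-lipoxygenase of leukotriene synthesis, fell from 1.60–1.88 to 0.240–0.486 FPKM. *Avil* was already low after TBHQ alone (0.915 to 1.28 FPKM, against 3.58 to 4.49 in control), and each PIC + TBHQ library lay below these (0.824 to 0.849). The remaining genes, *Sapcd2*, *Arhgef39*, *Depdc1a* (shared sequence, 60.8%), *Ankle1*, *Pimreg* and *Pif1*, had log2FC of -2.51, -2.43, -2.33, -2.31, -2.30 and -2.29.

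Macrophage identity genes were divided, with 9 of 26 higher and 11 lower and a median log2FC of -0.06. *Fcgr2b*, the inhibitory Fc receptor, measured 7.07, 7.05 and 6.76 FPKM in control and 18.6, 19.1 and 18.9 with PIC + TBHQ, and *Fcgr1*, the activating high-affinity receptor, 13.8, 14.2 and 13.99 and 4.38, 4.65 and 4.55. The log2FC was 1.43 (FDR = 7.0e-23) for the former and -1.63 (FDR = 3.2e-18) for the latter, and *Fcgr1* lay below PIC (log2FC -1.08, FDR = 5.0e-12). *Adgre1*, which encodes F4/80, rose by 1.34 on the log2 scale, and *Cebpb*, a factor of myeloid differentiation, by 1.23. *Itgam*, which encodes CD11b (shared sequence, 66.3%), rose from 10.3–10.7 to 25.5–26.5 FPKM (FDR = 2.1e-20).

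Toll-like receptor genes had 8 of 19 higher and 5 lower (5 and 7 with scaling by total counts), with a median of 0.10. *Irak3*, a brake on the pathway, rose from 3.99–4.61 to 15.7–17.9 FPKM, and *Cd14*, a co-receptor of TLR4 and the most abundant member, from 778–840.5 to 1427–1497. *Tlr9*, a sensor of CpG DNA, fell from 1.72–1.96 to 0.364–0.627. The list had 1 member below control past the threshold, and its lowest log2FC was -3.21, in a gene not named here. *Tlr6* (shared sequence, 12.3%) and *Ticam2* (14.6%) had log2FC of 0.74 and -0.59. Purinergic, Fc, lectin and scavenger receptors had 15 of 21 higher, 6 past the threshold, and 4 lower (2 in DESeq2 on the conditions compared), with a median of 1.37 beside 1.25 with PIC. *Clec4e*, the lectin receptor Mincle, measured 38.96, 36.9 and 36.1 FPKM in control, 231, 241 and 233 with PIC + TBHQ and 82.8, 81.99 and 87.3 with LPS + TBHQ. *Clec4n*, the fungal receptor dectin-2, lay above PIC (log2FC 0.65, FDR = 2.8e-05), and the adenosine receptor genes *Adora2a* and *Adora2b* had log2FC of 2.96 and 2.24 against control.

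Costimulation and checkpoint ligands had 5 of 9 tested genes higher and 2 lower, with a median of 0.68 beside 1.58 with PIC, and 7 lay below PIC. *Cd274*, which encodes PD-L1, measured 5.65, 5.93 and 6.36 FPKM in control, 23.7, 23.6 and 22.7 with PIC + TBHQ and 35.98, 35.3 and 34.2 with PIC. *Cd40* had a log2FC of 1.80 (FDR = 3.2e-20), and *Vsir*, which encodes the checkpoint protein VISTA, fell by 0.28. MHC class I presentation genes had 13 of 20 higher and 2 lower (8 and 4 with scaling by total counts), with a median of 0.21 beside 0.58 with PIC. *Tapbp*, the peptide editor tapasin, rose from 61.8–64.4 to 96.7–97.7 FPKM, *Nlrc5*, the class I transactivator, had a log2FC of 0.50, and *B2m*, the light chain, one of 0.14 that turned to -0.01 with total counts. *Erap1*, which trims peptides, fell by 0.34, and *H2-Q6* (shared sequence, 31.97%) overlapped with control, and its call (log2FC 0.62, FDR = 0.0344) was lost in many settings, among them DESeq2 on 18 libraries (FDR = 0.0667), total counts (FDR = 0.104) and a fit without control replicate 2 (FDR = 0.178). Of 8 class II genes 2 were tested and 1 was higher, *H2-DMa* at 0.78.

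ATF4 stress genes had 15 of 19 higher and 0 lower (1 lower with scaling by total counts), with a median log2FC of 0.58 beside 0.64 with PIC. *Ddit4*, an inhibitor of mTORC1, measured 2.97, 3.11 and 2.93 FPKM in control, 12.2, 13.3 and 10.7 with PIC + TBHQ and 23.96, 24.97 and 24.6 with PIC. *Sesn2*, which senses leucine, *Chac1*, which degrades glutathione, and *Atf5* had log2FC of 1.37, 1.32 and 1.26. ER chaperones moved little, with 6 of 18 higher and 5 lower, 2 and 12 with scaling by total counts, under which *Hspa5*, the chaperone BiP, turned from 0.10 to -0.05 and *Pdia6* from 0.12 to -0.03. *Dnajb9* rose by 0.39 and *Edem1* fell by 0.35.

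Glycolysis and hypoxia genes had 19 of 24 higher and 1 lower (14 and 4 with scaling by total counts, and 2 lower without control replicate 3 or without PIC + TBHQ replicate 1), with a median of 0.24 beside 0.56 with PIC. *Slc2a1*, the glucose transporter GLUT1, measured 82.1, 77.1 and 74.1 FPKM in control, 192, 181 and 179 with PIC + TBHQ and 272, 267 and 254 with PIC, and *Hk1*, a hexokinase, had a log2FC of 0.83. *Gapdh* (shared sequence, 24.7%) measured 12.6, 56.1 and 67.4 FPKM in the PIC + TBHQ libraries and 16.9, 15.8 and 104 with PIC, a spread within groups that leaves its log2FC of 2.39 uncertain. *Pdk1*, which restrains pyruvate dehydrogenase, fell by 0.51. LXR targets and cholesterol efflux genes had 2 of 10 higher and 5 lower (1 and 6 with total counts, and 1 higher also in DESeq2 on the conditions compared and without control replicate 1), with a median of -0.18, among them *Abcg1*, a cholesterol exporter, at -0.75 and *Scd2*, a desaturase, at -0.60. Sterol synthesis and uptake genes had 4 of 22 higher and 11 lower (2 and 16 with total counts), with a median of -0.12.

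Of 12 mitochondrially encoded mRNAs 8 were lower and 0 higher (by edgeR; 11 lower with scaling by total counts), with a median log2FC of -0.26, and 8 lay below PIC. *mt-Nd1* measured 2780.4, 3000.5 and 2930.4 FPKM in control and 2106, 2141 and 2109.7 with PIC + TBHQ. *mt-Co1* (shared sequence, 51.1%) overlapped with control, at a log2FC of 0.00 that was -0.15 with total counts (FDR = 2.4e-04), and *mt-Co2* (100%) was set apart by 1 control library, at 411, 154 and 128 FPKM. By level, the largest gains in mean FPKM were those of *Ccl3*, *Spp1* (osteopontin, shared sequence, 11.6%), *Acod1*, *Prdx1*, *Ftl1*, *Fth1*, *Ccl4* and *Ccl2*, and *Spp1* rose from 3814–4117 to 6366–6602 FPKM. The largest losses were those of *mt-Nd1*, *Lyz2*, *mt-Cytb*, *Lyz1* (shared sequence, 16.1%), *Ptma* (20.4%), *mt-Nd2*, *Ctss* and *Gm15772*. The last is a processed pseudogene, most like *Rpl26*, with 91.5% shared sequence. *Ctss*, the protease of class II antigen processing, fell from 793–849.7 to 562–583 FPKM, below PIC as well (log2FC -0.38, FDR = 2.5e-11).

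On the other side of the control stood a small set. PIC alone raised 57 genes that were below control with PIC + TBHQ (0.416% of the genes tested), and lowered 71 that were then above it (0.519%), both comparisons having an FDR below 0.05. With scaling by total counts these numbers were 48 and 97, and only 15 of the 57 and 21 of the 71 were met again. Most lay close to the control: the smaller of the pair of log2FC was under 0.2 in size for 37 of the 57 and 41 of the 71, and both exceeded 0.5 in 5 and 3 genes. All 57 were below PIC and all 71 above PIC in the direct comparison, directions that are fixed by how these genes were chosen. In the 57, the median log2FC was -0.18 with PIC + TBHQ, 0.21 with PIC, -0.11 with TBHQ alone and -0.21 with LPS + TBHQ. In the 71 it was 0.22, -0.22, 0.07 and 0.23. The 3 groups of libraries stood fully apart, with control in the middle, in 50 of the 57 and 57 of the 71. Without control replicate 1 the numbers were 36 and 41, and they moved by over 1.5 times also without control replicate 2 (37 of the first kind), PIC replicate 1 (47 of the second) and PIC replicate 2 (45 of the second).

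Of each kind the 10 genes with the largest values of the smaller log2FC of the pair were chosen for naming, and other members are named only where a list or the paper led to them. *Rgs1* (ENSMUSG00000026358, chromosome 1, 144118034 to 144124980), which ends G protein signals from chemokine receptors, measured 21.8, 22.9 and 22.2 FPKM in control, 33.1, 34.2 and 31.8 with PIC and 14.5, 15.5 and 15.7 with PIC + TBHQ. Its log2FC against control was -0.55 (standard error 0.041, FDR = 5.5e-13) with PIC + TBHQ and 0.55 (standard error 0.037, FDR = 1.3e-13) with PIC. Each PIC library was above and each PIC + TBHQ library below the whole control group, and TBHQ alone (12.9, 13.3 and 13.2 FPKM) and LPS + TBHQ (15.5, 15.1 and 16.3) were low too. *Ifi44l* (ENSMUSG00000039146, chromosome 3, 151464374 to 151468529), an interferon-induced gene, measured 52.03, 44.7 and 45.9 FPKM in control, 58.5, 64.4 and 67.4 with PIC, 35.01, 31.6 and 31.03 with PIC + TBHQ and 19.7, 19.8 and 18.5 after TBHQ alone, a log2FC of -0.55 (FDR = 1.9e-09) with PIC + TBHQ. *Cd83* (ENSMUSG00000015396, chromosome 13, 43938251 to 43956608), a surface protein of maturing antigen-presenting cells, measured 13.04, 14.2 and 14.8 FPKM in control, 19.9, 22.7 and 23.3 with PIC and 11.4, 10.3 and 10.6 with PIC + TBHQ, a log2FC of -0.39 (FDR = 2.3e-05). In both the order of the 3 groups was the same as for *Rgs1*, without overlap.

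The p53 targets *Trp53inp1*, an autophagy regulator, and *Phlda3*, an inhibitor of AKT, belonged here as well. *Trp53inp1* measured 1.06, 1.29 and 1.01 FPKM in control, 2.65, 2.48 and 2.26 with PIC and 0.845, 0.609 and 0.770 with PIC + TBHQ, a log2FC of -0.60 (FDR = 0.00123), and *Phlda3* one of -0.87 (FDR = 9.7e-04) against 0.64 (FDR = 0.00352) with PIC. *Ms4a6c* (shared sequence, 10.5%), a myeloid membrane protein gene, had the widest swing, with 49, 49 and 61 counts in control, 141, 149 and 135 with PIC and 23, 36 and 29 with PIC + TBHQ. *Ms4a6b* had a log2FC of -0.49 (FDR = 0.0210), not past an FDR of 0.05 in some settings, among them without PIC + TBHQ replicate 2 (-0.37, FDR = 0.115), and *Gm37795*, a gene of unconfirmed class, one of -0.70 (FDR = 0.0138), not past it without control replicate 1 (-0.63, FDR = 0.0522) or in DESeq2 on control and PIC + TBHQ alone (FDR = 0.0999), though past it in DESeq2 with PIC included (FDR = 0.0473). *Psmb9*, an immunoproteasome subunit, had -0.40 (FDR = 0.00156) with PIC + TBHQ and 0.27 (FDR = 0.0184) with PIC, the latter lost in some settings, among them total counts (0.05, FDR = 0.648). *Gm10123*, a processed pseudogene most like *Ppia*, with 100% shared sequence, is uncertain, and its rise with PIC (log2FC 0.46, FDR = 0.0153) was lost in many settings, among them without PIC replicate 3 (0.10, FDR = 0.557).

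Of the second kind, *Creg1* (ENSMUSG00000040713, chromosome 1, 165591315 to 165602877), a lysosomal glycoprotein, measured 111, 121 and 118 FPKM in control, 79.9, 80.9 and 78.7 with PIC and 182, 183 and 190.2 with PIC + TBHQ, and 176, 181 and 183 after TBHQ alone. Its log2FC was 0.66 (standard error 0.042, FDR = 1.7e-17) with PIC + TBHQ and -0.57 (standard error 0.038, FDR = 1.7e-15) with PIC. The PIC + TBHQ libraries were all above the control and the PIC libraries all below it. *Mgst2* (ENSMUSG00000074604, chromosome 3, 51567781 to 51590098), a microsomal glutathione transferase, measured 7.07, 6.18 and 6.20 FPKM in control, 3.46, 3.42 and 2.97 with PIC and 9.65, 8.99 and 8.97 with PIC + TBHQ, a log2FC of 0.50 (FDR = 9.5e-07) against -1.004 (FDR = 4.2e-12) with PIC. *Cacng8*, a membrane protein of the claudin-like family, had 66, 73 and 69 counts in control, 32, 29 and 31 with PIC and 131, 123 and 136 with PIC + TBHQ. The order of the groups was again the same in each library.

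*Cbr3*, a carbonyl reductase and Nrf2 target, measured 7.79, 7.64 and 6.18 FPKM in control, 6.43, 5.34 and 5.89 with PIC and 16.98, 15.6 and 15.96 with PIC + TBHQ, and 18.8, 21.4 and 19.4 after TBHQ alone. Its log2FC was 1.16 (FDR = 3.3e-12) with PIC + TBHQ and -0.31 (FDR = 0.0245) with PIC, where 1 library overlapped with control. The call with PIC was lost in 7 of 19 settings, among them DESeq2 on 18 libraries (FDR = 0.0768) and fits without control replicate 1 (-0.25, FDR = 0.107) or PIC replicate 2 (-0.23, FDR = 0.134). Among the log2FC that the paper lists as significant, there is none for *Cbr3* with PIC. *Pcx*, the pyruvate carboxylase, *Lrp8*, a lipoprotein receptor, and *H6pd*, which makes NADPH in the endoplasmic reticulum, had log2FC of 0.56, 0.45 and 0.49 with PIC + TBHQ, -0.38, -0.35 and -0.32 with PIC, and 0.52, 0.90 and 0.80 after TBHQ alone. *Slc17a9*, a vesicular nucleotide transporter, had 0.37 with PIC + TBHQ and -0.34 with PIC, *Mfsd6* 0.32 and -0.46, and the kinesin gene *Kif5a* 0.31 and -0.31. *Aatk*, a kinase gene, had 0.47 and -0.32, the latter lost in some settings, among them DESeq2 (FDR = 0.0567).

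**Figure D4:**
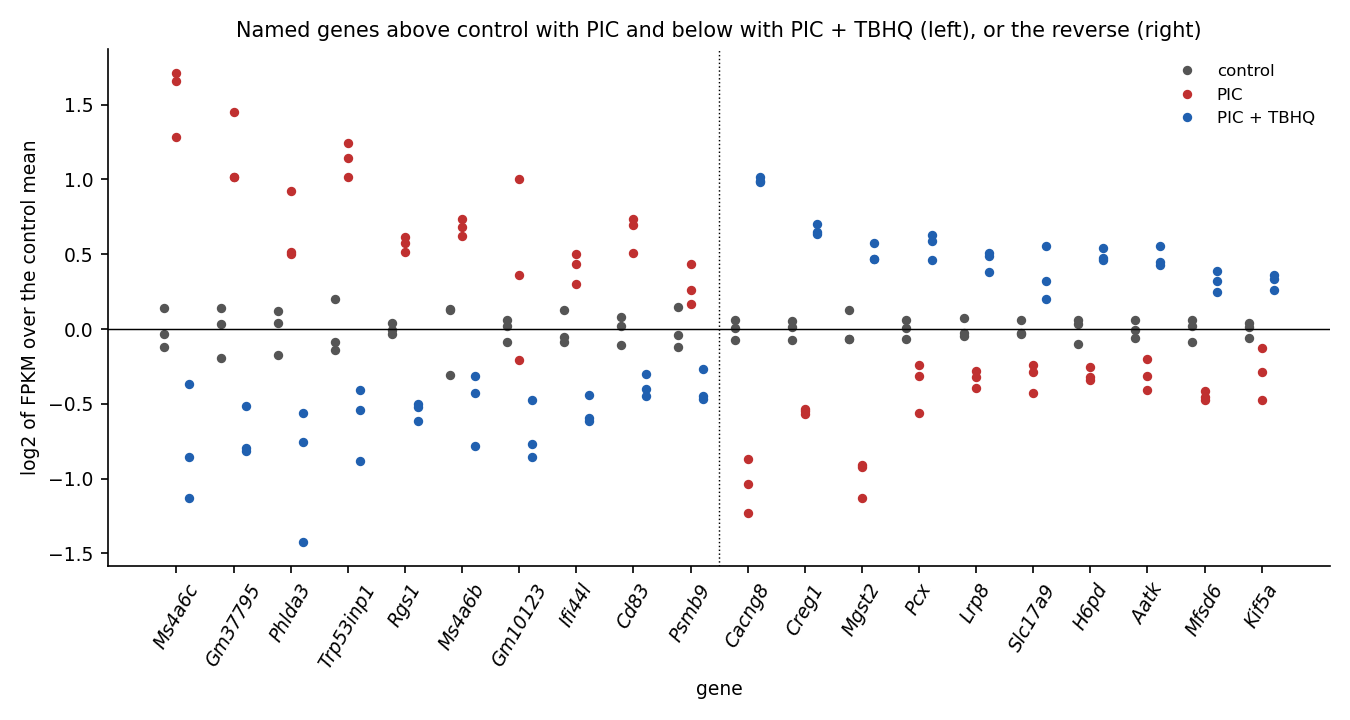
Log2 of each library's FPKM over the mean of the 3 control libraries (y axis) for 20 genes (x axis), 1 point per library of control, PIC and PIC + TBHQ. By their log2FC, the 10 genes to the left lie above control with PIC and below it with PIC + TBHQ, and the 10 to the right the reverse. Single libraries can overlap, as those of *Gm10123* with PIC and in control do. With scaling by total counts 15 of 57 and 21 of 71 such genes were met again.

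PIC + TBHQ and LPS + TBHQ differed in many genes. PIC + TBHQ lay above LPS + TBHQ most clearly in *Serpinb2* (log2FC 3.95, FDR = 1.6e-19), *Gbp5*, a GTPase of inflammasome assembly (log2FC 3.02, FDR = 1.8e-13), *Ccl5*, *Rsad2* (log2FC 2.60, FDR = 7.6e-28) and *Cxcl10* (log2FC 2.60, FDR = 4.7e-21). *Gbp5* measured 0.393, 0.305 and 0.339 FPKM in control, 0.824, 1.07 and 0.873 with PIC + TBHQ and 0.117, 0.0907 and 0.129 with LPS + TBHQ, the latter below the control in each library. PIC + TBHQ lay below LPS + TBHQ in *Ttc39a* (log2FC -1.26, FDR = 5.5e-06), *Neil3*, a DNA glycosylase of dividing cells (log2FC -1.08, FDR = 8.2e-09), *Knl1*, a kinetochore scaffold (log2FC -0.98, FDR = 2.6e-12), *Avil* (log2FC -0.98, FDR = 9.8e-05) and *Nemp2* (log2FC -0.96, FDR = 0.00112). *Neil3* measured 4.03, 4.05 and 3.95 FPKM in control, 0.985, 1.05 and 1.02 with PIC + TBHQ and 2.13, 2.28 and 2.06 with LPS + TBHQ, and *Knl1* 8.38, 8.43 and 8.64, 1.80, 1.99 and 2.19 and 3.81, 4.12 and 3.88. In both the 3 groups did not overlap.

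Promoter windows of 300 bases, from 250 before to 50 after the start of transcription, show which known motifs stand around the starts of genes that moved together. They come from RefSeq on GRCm38.p6, whose positions differ from those of the authors' files. By symbol, 158 of the 241 higher genes, 36 of the 54 lower genes, 42 of the 57 and 57 of the 71 genes on the other side of the control were matched, among 32851 windows in all. Each motif was searched on both strands. The core of the interferon response element, GAAANNGAAA, was held by 7.43% of the windows of higher genes, 7.14% of those of lower genes, 3.24% of those of all genes tested and 3.44% of all windows. In the same order the κB form GGGANNTTCC was held by 2.97%, 0%, 1.59% and 1.47%. The core of the antioxidant response element, TGACNNNGC, was held by 16.3%, 16.7%, 14.4% and 12.4%, and the AP-1 core TGANTCA, which can overlap with it, by 12.9%, 11.9%, 5.26% and 7.81%. The 42 windows of lower genes thus held 3 of these 4 motifs at shares near those of the higher genes. These shares rest on few windows: 3 with the interferon element, 7 with the antioxidant element and 5 with the AP-1 core. A gene can enter with more than 1 window. In the 71 genes that were below control with PIC and above it with PIC + TBHQ, TGACNNNGC was held by 17 of 85 windows, and in the 57 of the reverse kind by 9 of 49. These shares are descriptions of letters found, without a test, and a match is not a binding site. Many named genes held no match. TGACNNNGC stood in windows of *Gclm*, *Srxn1* and *Prdx1*, but in none of *Slc7a11*, *Cbr3*, *Adh7*, *Gstp1*, *Gstp3*, *Fth1* and *Ftl1*. The κB form stood in windows of *Cxcl2*, *Cxcl3*, *Cxcl10*, *Il6* and *Nfkbia*, but in none of *Il1b*, *Acod1*, *Ptgs2*, *Ccl3*, *Tnfaip3* and *Traf1*. The windows printed next were picked because they hold a match.

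To show such windows, 7 are printed 5′ to 3′ on the strand of the gene, with the matching letters in capitals: for the κB form *Cxcl2* (chr5:90903649-90903948, plus strand) and *Cxcl3* (chr5:90785851-90786150, plus), for the interferon element *Isg15* (chr4:156200769-156201068, minus) and *Rsad2* (chr12:26456403-26456702, minus), and for the antioxidant element *Srxn1* (chr2:152105274-152105573, plus), *Prdx1* (chr4:116685349-116685648, plus) and *Lrp8* (chr4:107802635-107802934, plus, 1 of 3 windows of this gene), all on GRCm38.p6 from RefSeq.
Cxcl2: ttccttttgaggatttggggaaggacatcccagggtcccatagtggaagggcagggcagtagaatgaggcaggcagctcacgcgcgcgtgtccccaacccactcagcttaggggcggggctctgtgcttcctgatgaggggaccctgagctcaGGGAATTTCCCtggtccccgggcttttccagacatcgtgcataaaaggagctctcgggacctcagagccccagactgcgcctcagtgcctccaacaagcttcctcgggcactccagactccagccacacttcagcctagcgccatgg
Cxcl3: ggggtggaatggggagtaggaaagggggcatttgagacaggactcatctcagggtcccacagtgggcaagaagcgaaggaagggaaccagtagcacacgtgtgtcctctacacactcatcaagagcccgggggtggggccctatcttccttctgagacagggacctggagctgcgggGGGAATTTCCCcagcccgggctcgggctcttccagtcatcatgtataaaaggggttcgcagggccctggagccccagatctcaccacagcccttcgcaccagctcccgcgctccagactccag
Isg15: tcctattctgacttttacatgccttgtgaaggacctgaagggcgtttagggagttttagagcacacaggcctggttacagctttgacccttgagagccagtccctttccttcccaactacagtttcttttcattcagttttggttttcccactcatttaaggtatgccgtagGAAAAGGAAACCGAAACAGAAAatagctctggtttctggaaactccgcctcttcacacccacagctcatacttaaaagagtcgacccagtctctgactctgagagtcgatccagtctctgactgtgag
Rsad2: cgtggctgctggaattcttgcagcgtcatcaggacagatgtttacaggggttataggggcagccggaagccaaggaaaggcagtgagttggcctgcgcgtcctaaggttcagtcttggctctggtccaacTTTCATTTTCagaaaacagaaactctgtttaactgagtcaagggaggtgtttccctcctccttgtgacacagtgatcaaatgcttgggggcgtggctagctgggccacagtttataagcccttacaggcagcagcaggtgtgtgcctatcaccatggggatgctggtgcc
Srxn1: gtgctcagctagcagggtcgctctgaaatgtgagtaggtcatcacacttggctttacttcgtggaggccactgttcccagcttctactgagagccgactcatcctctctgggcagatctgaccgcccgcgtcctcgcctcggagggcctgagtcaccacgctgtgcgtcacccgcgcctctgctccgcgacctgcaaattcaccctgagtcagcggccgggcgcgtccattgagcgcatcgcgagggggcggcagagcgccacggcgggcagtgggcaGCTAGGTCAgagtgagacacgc
Prdx1: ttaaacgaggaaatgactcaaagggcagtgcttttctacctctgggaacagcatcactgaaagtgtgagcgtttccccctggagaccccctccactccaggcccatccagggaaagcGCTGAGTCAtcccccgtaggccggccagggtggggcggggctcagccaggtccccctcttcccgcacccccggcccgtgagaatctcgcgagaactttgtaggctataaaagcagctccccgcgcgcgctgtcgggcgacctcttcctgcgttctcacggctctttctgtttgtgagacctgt
Lrp8: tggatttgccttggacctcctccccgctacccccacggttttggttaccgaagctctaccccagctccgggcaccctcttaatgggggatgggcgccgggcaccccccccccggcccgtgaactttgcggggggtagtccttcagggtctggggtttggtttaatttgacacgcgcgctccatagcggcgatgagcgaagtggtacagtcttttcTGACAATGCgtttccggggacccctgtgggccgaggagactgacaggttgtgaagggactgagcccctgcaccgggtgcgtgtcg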

How the data were processed

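Poly(A)-selected RNA of 18 libraries was sequenced, 3 for each of 6 conditions, of which 5 are used here. The authors deposited raw counts of fragments per gene. The authors also deposited FPKM, which on the values carry a further constant for each library, close to the inverse of the TMM factor (0.943 to 0.951 in control, 1.05 to 1.06 with PIC + TBHQ). The labels name HISAT2 2.0.5, StringTie 1.3.3b and featureCounts 1.5.0-p3 and the reference as GRCm38/mm39. The libraries are described as strand-specific, but the strand setting of the counting is not given, so whether reads of a gene and of an overlapping antisense gene were separated is not known.

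Counts were tested with edgeR 4.0.16 (filterByExpr, TMM, glmQLFit, glmQLFTest) in R 4.3.3, in 1 fit over 18 libraries with 1 coefficient per condition, with Benjamini-Hochberg adjustment over all genes tested. Replicate numbers carry no stated pairing. The limits on FDR and |log2FC| were 0.01 and 2 for the threshold, and 0.05 on the FDR alone for the whole response and for all other comparisons. Log2 CPM used a prior count of 2, and 3 counts per library were taken as the floor, which is a CPM of 0.177 to 0.206 in the control and PIC + TBHQ libraries. Tables and figures were made with Python 3.11.15, pandas 2.3.3, numpy 2.4.6 and matplotlib 3.10.9.

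Named genes are the 12 highest and 12 lowest past the threshold (mean of at least 50 counts, no overlap between groups), 10 in each direction across the control (ranked by the smaller of both log2FC), of each of 31 gene lists up to 4 higher and 3 lower members (mean of at least 20 counts) and the most abundant one, the 8 largest gains and losses in FPKM, the genes named in the paper's results, and the 5 largest differences from LPS + TBHQ each way. Lists can reach beyond their named genes, to a log2FC of 4.03 in the antiviral effectors and -3.21 in the toll-like receptors. Other names are marked as chosen after their values were seen. Some named genes are not reported here. The members and lists were chosen with earlier results of these data known, and the lists were written from general knowledge. Alternatives were RLE size factors or total counts in place of TMM, no filter or a mean of at least 50 counts, DESeq2 1.42.0 on 18 libraries or on the conditions compared, edgeR on the latter, the replicate number as a block, limma 3.58.1 on log2(FPKM + 1) and log2(FPKM + 0.1), other thresholds, and leaving out each control, PIC and PIC + TBHQ library in turn.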

Additional observations from a re-analysis of the deposited data

Results flagged for a closer look

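In 9 of the named genes, PIC + TBHQ and LPS + TBHQ stood on opposite sides of the control, each at an FDR below 0.05, and the direct comparison of both groups also passed (edgeR). The log2FC between them was 2.60 for *Rsad2*, 2.60 for *Cxcl10*, 3.02 for *Gbp5*, 1.98 for *Ifit3b*, 0.54 for *Usp18*, 0.56 for *Irgm1*, 0.32 for *B2m*, 0.54 for *Abca1* and 0.45 for *Mcl1*. Over all genes tested 61 met the same condition, 58 above the control with PIC + TBHQ and 3 below it. *Ifit3b* shares 44.95% of its 50-base words with *Ifit3* and is uncertain. With scaling by total counts, the calls against control of *Abca1* (FDR = 0.244) and *Mcl1* (FDR = 0.195) were lost, and *B2m* turned from 0.14 to -0.01. The call of *Abca1* was also lost in other settings.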

How the results depend on the processing

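As reported, 241 genes were higher and 54 lower past the threshold, 3615 and 3563 at an FDR below 0.05, and 57 and 71 genes crossed the control, down and up with TBHQ. With only genes of a mean of at least 50 counts tested, and so fewer genes, 121 and 25 lay past the threshold. Of these, 120 and 25 were among the 241 and 54. A limit of |log2FC| above 1 gave 642 and 458, and a test against a 2-fold change 361 and 183. EdgeR on the conditions compared gave 194 and 50. Limma gave 68 and 5 on log2(FPKM + 1), and 161 and 26 on log2(FPKM + 0.1). Scaling by total counts gave 2364 higher and 5515 lower genes at an FDR below 0.05. Genes crossing upward numbered 42 with DESeq2 on 18 libraries and 35 on the conditions compared, and an FDR below 0.01 in both comparisons left 27 downward and 28 upward. Apart from stricter or looser limits and fewer genes, the cause was not tested.

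With the replicate number as a block, as for paired samples, the counts were 240, 55, 3624, 3576, 57 and 74. The correlation between control and PIC + TBHQ libraries of the same number, after removing group means, was 0.0351, -0.0419 and 0.0140, so the numbers show no pairing. Leaving out each control, PIC and PIC + TBHQ library in turn gave 228 to 255, 54 to 62, 3295 to 3635, 3242 to 3609, 36 to 65 and 41 to 63, and 429 to 451 called list members. No library of another condition was left out. The lowest crossing counts were without control replicate 1 (36 and 41), and control replicate 2 (37), PIC replicate 1 (47) and PIC replicate 2 (45) also mattered.

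Of 4477 values of named genes under all alternatives, 4385 kept their call or its absence, 87 lost the call, 1 was labelled as gaining it (*Ifngr2* without PIC + TBHQ replicate 2) and 4 were labelled as turned, all with scaling by total counts: *Pdia6* to -0.0295, *Hspa5* to -0.0530, *B2m* to -0.00760 and *mt-Co1* to -0.15. The turned value of *mt-Co1* was also a gained call (FDR = 2.4e-04). The sign also changed in values not called either way, of *Ifngr2* (-0.07) and *Cd74* (-0.10) with total counts and of *mt-Co1* without control replicate 1 (-0.03) or PIC + TBHQ replicate 3. Of 1178 list counts 55 moved by over 1.5 times. Of the 241 higher genes 207 were shared with total counts and 232 with DESeq2, and 54 and 48 of the 54 lower.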
